A study of Mus musculus and Homo sapiens with 22 samples.

Results

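Immediate early genes were described in mouse embryonic stem cells (mESCs), mouse heart and HEK293T cells. The set held 10 genes: Fos, Jun, Junb, Atf3, Egr1, Klf6, Klf10, Ier2, Ier5 and Btg2. They were chosen by name and not by a measured value, but with earlier results of these data known. All 10 were found among the 56196 genes listed in the RNA-seq files, and all 10 human counterparts were found in the human annotation. The series held 22 samples. RNA-seq was made from poly(A)+ RNA of 3 wild-type (WT) and 3 Mettl3 knockout (KO) mESC samples; Mettl3 is the catalytic subunit of the main N6-methyladenosine (m6A) methyltransferase of mRNA. The WT and KO lines came from an earlier publication and were grown with serum and LIF, with no other treatment in the labels. The labels do not say whether the 3 samples of a genotype are separate cultures, lines or clones, so the p-values below measure only the spread between these samples, which may be technical. For another assay the study grew the mESCs on irradiated mouse embryonic fibroblasts and depleted these before extraction, and for RNA-seq the sources used here do not say. m6A sites came from miCLIP2, an antibody-based crosslinking method that maps m6A to single nucleotides, in WT mESCs (3 biological replicates merged by the authors), in purchased poly(A)+ RNA of mouse heart at inputs of 1000, 300, 100 and 50 ng (1 library each), and in HEK293T, a human embryonic kidney cell line grown in DMEM with serum (4 replicates merged).

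Immediate early genes are transcribed within minutes of a growth factor, serum or stress signal, from factors and kinases that are already present in the cell. Several of them encode transcription factors, among them the Fos and Jun subunits of AP-1, and their mRNAs are known for a short life, to which AU-rich elements in the 3′ UTR and m6A can contribute. m6A lies mostly in the DRACH motif, which is A, G or U, then A or G, then the methylated A, then C, then A, C or U.

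The sequences below are the highest-scoring m6A sites in WT mESCs of 6 of the genes, shown as the positions on which the site results turn. Each is the 21 nt around the site in the transcript's sense, from GRCm38, with the pentamer that holds the methylated A in its middle in capitals.
Jun, chr4:95050129-95050149, minus strand, 3′ UTR: cacaagatGGACTgggttgcg
Atf3, chr1:191170691-191170711, minus strand, 3′ UTR: ttggctacAAACTgttacaac
Klf6, chr13:5867594-5867614, plus strand, 3′ UTR: tctattacTGACTgtatggtg
Klf10, chr15:38295867-38295887, minus strand, 3′ UTR: cgcagaatAAACTttggtcag
Ier5, chr1:155098164-155098184, minus strand, 3′ UTR: ggggcttgAGACTttgggggt
Btg2, chr1:134076671-134076691, minus strand, 3′ UTR: gcgcgcaaAGACTttggggct
All 6 lay in a 3′ UTR, as did the highest-scoring site of Ier2, in a GGACT pentamer, whereas that of Junb lay in the coding sequence, in GGACA. Fos and Egr1 had no site in the mESC list. Fos had 1 site in the heart list at 1000 ng, in its 3′ UTR, which is shown since it is the single site of Fos in these lists.
Fos, chr12:85476604-85476624, plus strand, 3′ UTR: ggcctcaaGGACTtgcaagca

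The RNA-seq libraries held 22746733 to 27254245 counts in genes. Mettl3 was read at 26.4, 26.6 and 28.9 CPM (counts scaled to the TMM-normalised library total) in WT and at 18.4, 22.6 and 16.9 in KO. KO minus WT, this was -0.50 ± 0.14 (SE) on the log2 scale, and the quasi-likelihood test of edgeR gave an adjusted p of 0.0134 (Benjamini-Hochberg). This did not pass the threshold of 0.01, but the groups did not overlap, and with the replicate number as a block the value was -0.51 with an adjusted p of 0.00281. The gene counts do not separate exons, so what part of Mettl3 the KO lines carry was not analysed here. Of 7 mESC markers, Pou5f1, Sox2, Nanog, Zfp42 and Esrrb were read at 118 to 755 CPM in every library. Utf1 was read at 33.9 to 52.5 CPM in WT and at 17.2 to 17.9 CPM in KO. Dppa5a was read at 773 to 1086 CPM in WT and at 284 to 313 CPM in KO, and both passed as lower in KO. The summed level of the 7 was 3310 to 3449 CPM in WT and 2713 to 2769 CPM in KO. Of 14 fibroblast markers, 9 were too low to test, 5 of them with at most 3 counts in every library, and the summed level of the list was 6.44 to 9.20 CPM in WT and 14.5 to 37.2 CPM in KO. Of the 5 tested, Thy1 rose (log2 fold change 1.19, adjusted p = 0.00206), and with the replicate block Pdgfra, Tagln and Twist1 passed as well. Col1a1 had an estimate of the opposite sign (-0.81, adjusted p = 0.0737), and its counts were 27, 36 and 17 in the WT libraries against 18, 23 and 13 in the KO libraries. KO replicate 1 stood apart in Acta2, with 328 counts against 19 and 7 in the other KO libraries, and in Tagln, with 265 counts against 44 and 41. The part of these cells in the results below was not tested. In bulk RNA, fewer cells of a type and less RNA per cell cannot be told apart.

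All 10 immediate early genes passed the filter on low counts, and 2 of them passed the test: Jun rose in KO and Egr1 fell. Egr1 passed this filter only through the WT libraries, where it was higher. Of all 15731 genes tested, 29.7% passed, 17.1% higher and 12.6% lower in KO, so a share of 2 in 10 is no larger than the background. The groups did not overlap for 6 of the 10 genes, against 56.1% of all genes tested. The median log2 fold change was -0.44 over the 10 genes and -0.02 over all genes tested. Where at least 10 counts were required in every library, which leaves out Egr1, it was -0.27 over the other 9. Fold changes were negative for 7 genes and positive for Jun, Klf6 and Klf10, and no gene changed its sign under any alternative run. With libraries scaled by their size only, the median of all genes was 0.08 and 71.0% of called genes were higher in KO, against 57.5% in the reported fit. Jun then had an adjusted p of 0.00328 and Egr1 one of 0.0114.

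**Figure D1:**
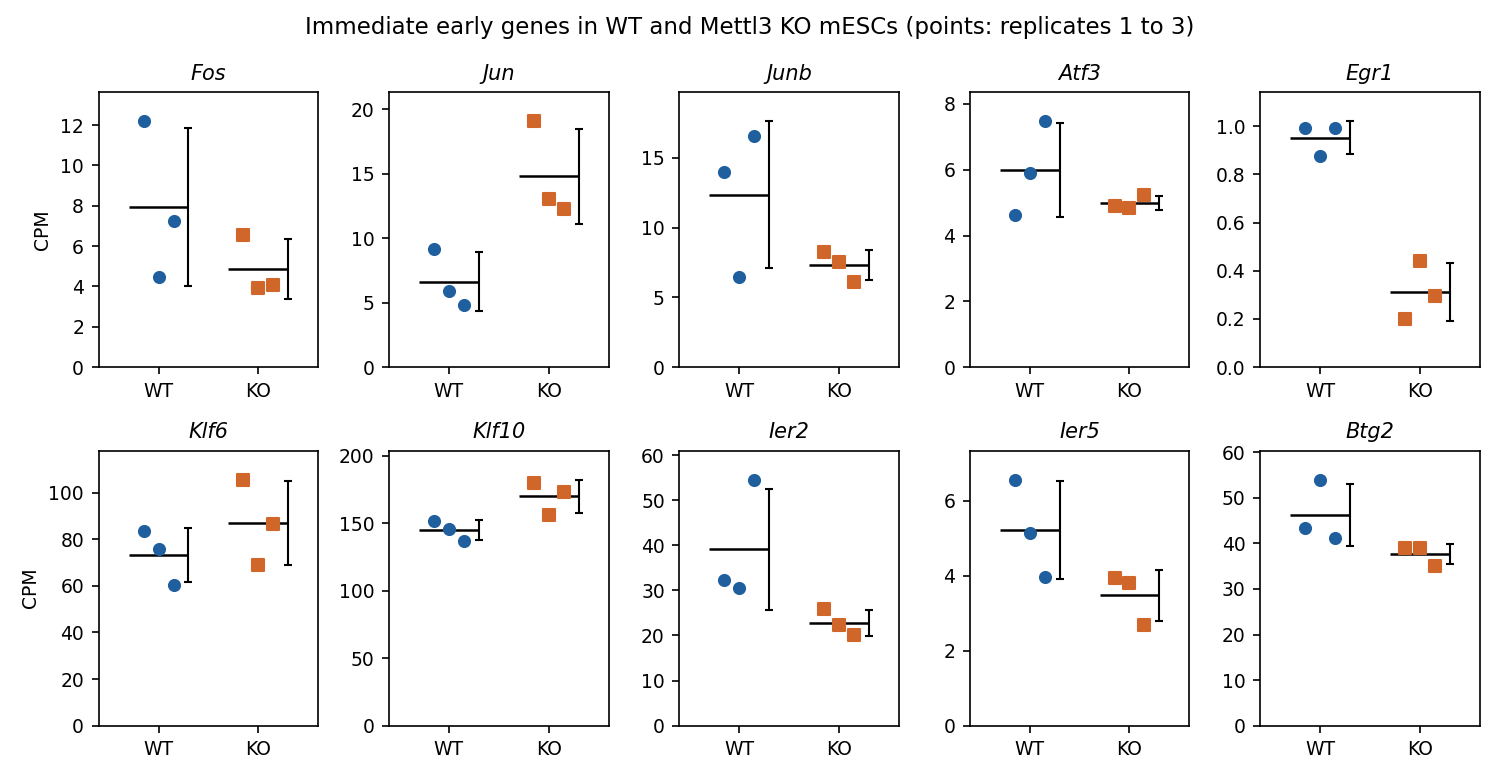
CPM of the 10 immediate early genes in the 3 WT (circles) and 3 Mettl3 KO (squares) mESC libraries, each panel with its own axis from 0; lines are means and bars are SD. Jun lies higher in all 3 KO libraries (12.3 to 19.1 CPM against 4.82 to 9.20), Egr1 lies lower (0.199 to 0.439 against 0.876 to 0.992), and Fos, Junb, Klf6 and Atf3 overlap between the groups.

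Among the AP-1 subunits, Jun, which dimerises with Fos proteins, was read at 9.20, 5.90 and 4.82 CPM in WT and at 19.1, 13.0 and 12.3 CPM in KO. Every KO library lay above every WT library. Jun thus rose 2.23-fold, a log2 fold change of 1.16 ± 0.26 (SE; 95% interval 0.58 to 1.73; adjusted p = 0.00473 in the same edgeR test). Jun was highest in KO replicate 1, the library with the most Acta2 and Tagln. Among the WT libraries it was highest in replicate 1, which had 0 counts of Acta2 and 19 of Tagln. Without KO replicate 1 the log2 fold change of Jun was 0.94 with an adjusted p of 0.0269. Without WT replicate 2 it was 1.07 with an adjusted p of 0.0145, so both lose the call at 0.01. Of 12 alternative fits, 10 kept the call, among them the replicate block (adjusted p = 7.27e-06) and DESeq2 (adjusted p = 7.1e-05).

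Fos, which forms stable AP-1 dimers with Jun, was read at 12.2, 4.46 and 7.23 CPM in WT and at 6.57, 3.92 and 4.06 CPM in KO. WT replicate 1 was the highest of all 6, and the groups overlapped. The log2 fold change of Fos was -0.71 ± 0.35 (95% interval -1.49 to 0.07; adjusted p = 0.119). It ranged from -0.27 without WT replicate 1 (adjusted p = 0.535) to -1.01 without WT replicate 2 (adjusted p = 0.0193). Blocking by replicate gave -0.65 for Fos (adjusted p = 0.0103), just outside the threshold, where 43.5% of all genes were called. None of 12 alternative fits called Fos. Fos and Jun, which act as a pair, therefore had estimates of opposite sign, of which only that of Jun passed.

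Junb, a Jun paralogue and weaker activator, was read at 14.0, 6.47 and 16.6 CPM in WT and at 8.28, 7.56 and 6.13 CPM in KO. WT replicate 2 lay among the KO libraries. The log2 fold change of Junb was -0.75 ± 0.30 (adjusted p = 0.0637); without WT replicate 2 it was -1.07 with an adjusted p of 0.00176, a gain of the call, and without WT replicate 3 it was -0.47 with an adjusted p of 0.193. Atf3, a stress-induced member of the ATF/CREB family that pairs with Jun proteins, was read at 4.63, 5.90 and 7.47 CPM in WT and at 4.90, 4.83 and 5.25 CPM in KO. The KO libraries of Atf3 lay inside the WT range, with a log2 fold change of -0.27 ± 0.22 (adjusted p = 0.35; 95% interval -0.76 to 0.23).

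Among the zinc finger factors, Egr1, which responds to serum and ERK signalling, was the least abundant gene of the set. It had 21, 23 and 21 counts in WT and 5, 13 and 8 counts in KO, and its WT libraries alone carried it past the filter on low counts. All KO libraries lay below all WT libraries. The log2 fold change of Egr1 was -1.58 ± 0.36 (95% interval -2.38 to -0.77; adjusted p = 0.00546). This call was not stable. The adjusted p of Egr1 was 0.0145 with DESeq2, 0.0211 without WT replicate 1, 0.0102 without WT replicate 2, 0.01005 without WT replicate 3, 0.0297 without KO replicate 1 and 0.0272 without KO replicate 3, while the fold change stayed between -1.91 and -1.35.

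Klf6, a Krüppel-like factor that can restrain growth, was read at 83.3, 75.8 and 60.5 CPM in WT and at 105, 69.0 and 86.4 CPM in KO. Its groups overlapped (log2 fold change 0.25 ± 0.17, adjusted p = 0.246). Klf10, a Krüppel-like factor induced by TGF-β, was read at 152, 146 and 137 CPM in WT and at 180, 156 and 173 CPM in KO. The groups of Klf10 did not overlap, but the difference was small (log2 fold change 0.23 ± 0.10) and did not pass (adjusted p = 0.0937).

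Ier2, a nuclear protein of the immediate early response, was read at 32.2, 30.5 and 54.5 CPM in WT and at 25.8, 22.3 and 20.1 CPM in KO. All KO libraries lay below all WT libraries, and WT replicate 3 stood well above the other WT libraries. The log2 fold change of Ier2 was -0.78 ± 0.21 (95% interval -1.25 to -0.31) with an adjusted p of 0.0125, just outside the threshold. With the replicate number as a block it was -0.74 with an adjusted p of 0.00102, a call, in a fit that called 43.5% of all genes. DESeq2 also called Ier2, with an adjusted p of 0.00241, and so did the fit without WT replicate 2, with 0.0049. Without WT replicate 3, the highest WT library, the log2 fold change of Ier2 was -0.46 with an adjusted p of 0.0152.

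Ier5, a paralogue of Ier2 that takes part in the heat shock factor response, was read at 6.56, 5.14 and 3.97 CPM in WT and at 3.94, 3.81 and 2.697 CPM in KO. The groups lay side by side without overlap, with a log2 fold change of -0.58 ± 0.26 (adjusted p = 0.0867). Btg2, an antiproliferative partner of the CCR4-NOT deadenylase, was read at 43.4, 53.9 and 41.2 CPM in WT and at 39.0, 39.0 and 35.1 CPM in KO. Its KO libraries lay just below the WT libraries, with a log2 fold change of -0.29 ± 0.13 (adjusted p = 0.0795).

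Per kilobase of exon, the WT levels of the genes ran from 34.7 ± 1.81 CPM per kb for Klf10 (SD, n = 3) to 0.213 ± 0.0149 for Egr1, on either side of the median of 3.64 over the tested genes. Between them lay Ier2 at 25.7 ± 8.79, Btg2 at 16.8 ± 2.48, Klf6 at 16.7 ± 2.64, Junb at 5.36 ± 2.28, Fos at 3.38 ± 1.66, Atf3 at 2.78 ± 0.660, Jun at 2.08 ± 0.716 and Ier5 at 1.59 ± 0.396 CPM per kb. The WT libraries of neighbours in this order overlapped, except between Ier2 and Btg2, between Klf6 and Junb, and between Ier5 and Egr1. In KO, Jun stood at 4.64 ± 1.16 CPM per kb, above Junb (3.18 ± 0.475), Atf3 (2.32 ± 0.104) and Fos (2.06 ± 0.634), all of which it lay below in WT.

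For each gene, the most similar profile over the 6 libraries was sought among the genes with a symbol and a mean of at least 100 counts, by the Euclidean distance between log2 CPM values centred on their mean. These were Gm26917 for Fos (distance 0.379), Amot for Jun (0.266), Hist1h2bk for Junb (0.468), Ppih for Atf3 (0.0986), Amer1 for Egr1 (0.379), Slc35f2 for Klf6 (0.137), Rnf115 for Klf10 (0.0689), E2f2 for Ier2 (0.278), Bbc3 for Ier5 (0.239) and Serhl for Btg2 (0.0728). None of these was among the 10 genes or on the wider list below. Each was the nearest of 10845 genes (10846 for Egr1), nearly all of them on neither list. Their absence therefore does not show whether the immediate early genes vary together. Gm26917, a predicted gene, was far more abundant than Fos, with 63572 to 128570 counts a library against 110 to 258 for Fos, and both were highest in WT replicate 1.

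A wider list held 36 other immediate early genes, of which 29 were tested. Of these, 11 passed, 6 higher and 5 lower in KO, and 18 did not, beside the background of 29.7% given above (17.1% higher and 12.6% lower). The median log2 fold change was -0.13. With the replicate number as a block 13 passed, in a fit that called 43.5% of all genes tested. The 2 added were Ier3 (-1.04, adjusted p = 6.98e-05) and Ppp1r15a (-0.47, adjusted p = 0.00366). The 4 largest changes were all rises: Rhob, a small GTPase of the actin cytoskeleton (2.51, adjusted p = 2.97e-06), Ccn1 (1.78, adjusted p = 0.000431) and Ccn2 (1.504, adjusted p = 0.000588), both secreted matricellular proteins, and Klf2, a Krüppel-like factor of the pluripotency network (1.61, adjusted p = 1.24e-05). Rhob was read at 7.27 to 7.84 CPM in WT and at 37.8 to 50.3 CPM in KO, a 5.69-fold rise. Ccn1 and Ccn2 were highest in KO replicate 1, like Jun, at 31.7 and 63.4 CPM, and all 4 genes kept their call without that library and under every other alternative. The number called fell from 11 to 7 without KO replicate 1 and to 7 without KO replicate 3. The 7 genes with too few counts to test were Fosb, Fosl1, Egr4, Jund, Egr2, Egr3 and Nr4a3, and the last 4 had at most 3 counts in every library. Jund was counted 0 or 1 times a library, although no other gene overlaps it on its strand in the annotation used for sites. The annotation used for the counts was another release and was not checked. Whether these counts reflect the RNA level of Jund or the counting was not tested.

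**Figure D2:**
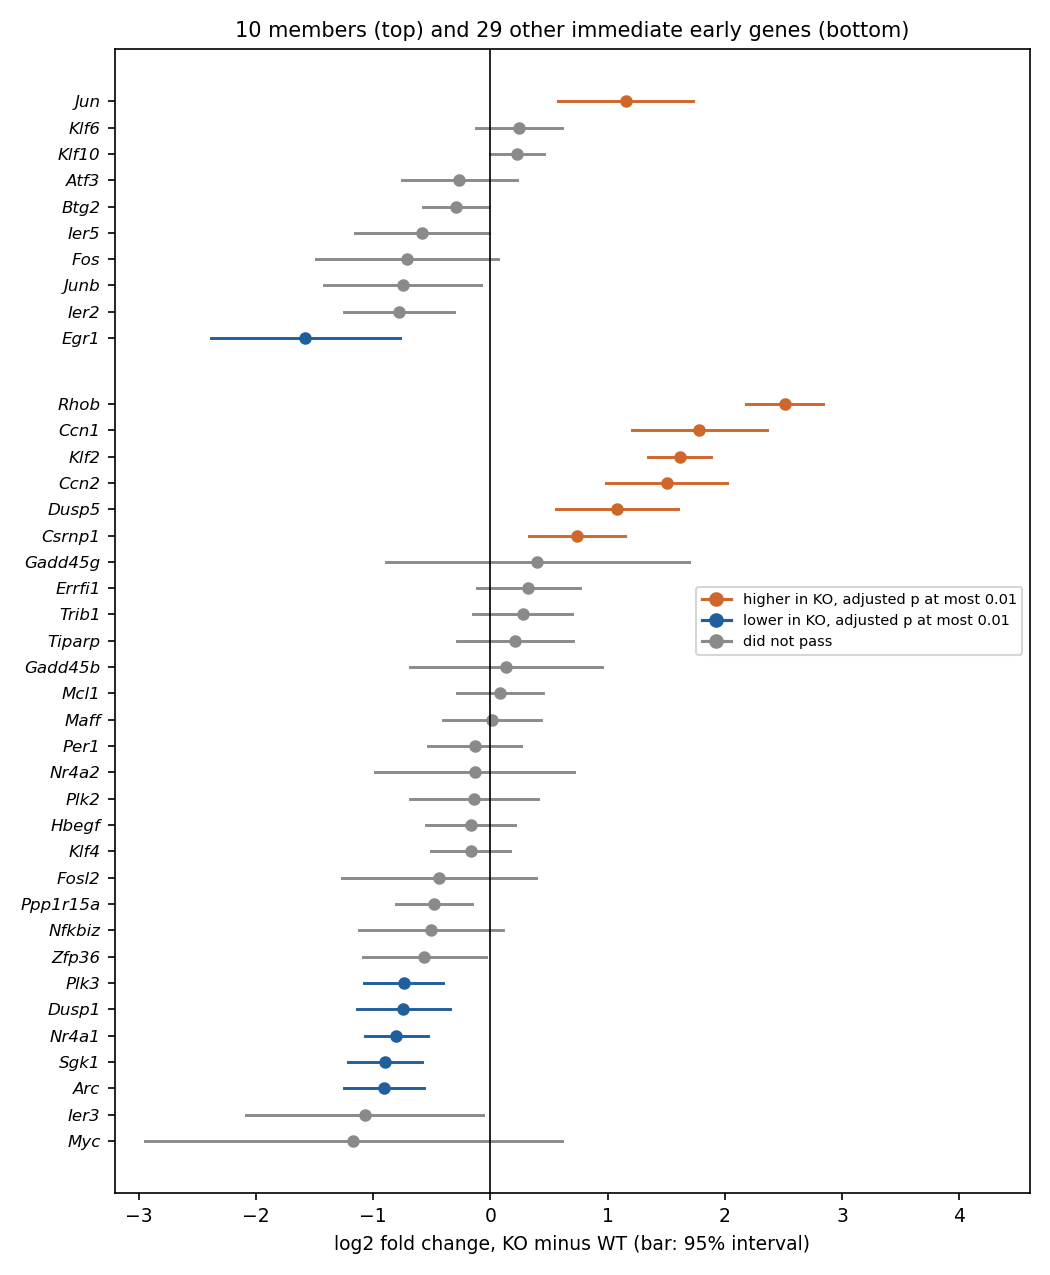
log2 fold change (KO minus WT) with its 95% interval for the 10 immediate early genes (top) and the 29 tested genes of the wider list (bottom), coloured by whether they passed at an adjusted p of 0.01. Jun (1.16) is the only rise that passed in the upper group, where 7 of 10 estimates are negative, and Rhob (2.51) has the largest estimate in the lower group.

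Genes known to act on the immediate early genes were taken list by list. The background for each list is the same 29.7%, or 43.5% with the replicate number as a block. Of 19 upstream factors and kinases, 3 passed, and 8 with the block (3 higher and 5 lower in KO). Rps6ka5, the kinase MSK1 that phosphorylates CREB and histone H3, rose (0.68, adjusted p = 0.0034), Elk4, a partner of serum response factor, fell by 0.64 on the log2 scale (adjusted p = 0.00289) and Rps6ka1, an ERK-activated kinase, fell by 0.57 (adjusted p = 0.00128). Each of the 3 lost its call in at least 1 fit with a library left out: Rps6ka5 without WT replicate 1 (adjusted p = 0.016), KO replicate 1 (0.0115) or KO replicate 2 (0.014), Elk4 without WT replicate 1 (0.0141), KO replicate 1 (0.0213) or KO replicate 3 (0.0145), and Rps6ka1 without KO replicate 3 (0.0106). The median log2 fold change of the list was -0.14.

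Of 8 tested AP-1 partners, only Atf7, which pairs with Jun proteins, passed (-0.58, adjusted p = 0.00496), and its adjusted p was 0.0185 without WT replicate 1, 0.0169 without WT replicate 2, 0.029 without KO replicate 1 and 0.0255 without KO replicate 3. The median over these 8 genes was -0.03. Of 8 proteins that bind AU-rich elements, 2 fell. Zfp36l1, which recruits deadenylases to such mRNAs, fell by 1.04 on the log2 scale (adjusted p = 0.000253), and Elavl1, the stabilising protein HuR, fell by 0.50 (adjusted p = 0.00208). Elavl1 lost its call without WT replicate 1 (0.0111), KO replicate 1 (0.0174) or KO replicate 3 (0.0126), and the median over the 8 proteins was -0.22. Of 9 heat shock genes, which share inducing signals with the immediate early genes, 2 passed, and 4 with the replicate block. Hspb1 fell by 1.599 (adjusted p = 4.09e-05) and Hspd1 rose by 0.79 (adjusted p = 0.0015; 0.0117 without WT replicate 1), with a median of -0.14. Of the mESC markers, Dppa5a fell by 1.68 and Utf1 by 1.25 (adjusted p = 2.25e-05 and 0.00021), and the other 5 did not pass, of which Esrrb did with the replicate block (0.43, adjusted p = 0.00191). Of the heart muscle markers, 5 were tested in mESCs and Ttn rose (1.84, adjusted p = 0.000731).

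The WT mESC list held 25456 m6A sites, and 24880 of these fell in the exons of exactly 1 gene. The immediate early genes held 42 of them, in 8 of the 10 genes: 10 in Ier2, 8 each in Klf6 and Klf10, 5 in Btg2, 3 each in Jun, Junb and Atf3, and 2 in Ier5. Fos and Egr1 held none. Of the tested genes, 41.5% had a site. The value behind each site is a prediction score from 0.5 to 1 with no replicate values, so sites have no test, and the lists do not give the depth behind a site. The absence of Egr1 and Fos from this list therefore says only that no site was detected at this depth, and its cause was not tested. Egr1 was in the lowest quartile of expressed genes, where 0.841% of genes had a site, and Fos in the next one, where 25.5% had. Atf3, Jun and Ier5 were in the same quartile as Fos and had 2 or 3 sites, numbers that 15.1% (2 or more) and 8.81% (3 or more) of its genes reached. Their mean WT levels of 2.78, 2.08 and 1.59 CPM per kb were below the 3.38 of Fos, but the WT libraries overlapped. Fos ran from 1.89 to 5.18 CPM per kb, Atf3 from 2.15 to 3.47, Jun from 1.51 to 2.89 and Ier5 from 1.21 to 2.00. These are levels in the RNA-seq libraries and not in the miCLIP2 libraries.

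Ier2 had the most sites for its length. Its transcript of 1522 nt held 26 DRACH motifs, of which 10, or 38.5%, were sites, 2 in the coding sequence and 8 in the 3′ UTR. Ier2 alone of the 10 genes had another gene version in the annotation used for sites than in the RNA-seq counts. Its length, site share and level per kb rest on the version used for sites. The median over the 6281 coding genes with a site was 4.17%, with quartiles of 2.22% and 7.46%. The shares of the others ran from 3.23% in Ier5 and 4.17% in Jun through 7.55% in Btg2, 7.69% in Klf6, 7.89% in Atf3 and 10.0% in Junb to 14.0% in Klf10. Ier2 and Klf10 were also the 2 most abundant genes of the set per length, and 7.72% of genes in the highest quartile of expression had at least as many sites as Ier2. The highest-scoring site of the set was that of Klf10, 30 nt downstream of the first base of the stop codon, with a score of 0.980, above 99.7% of the sites in the list. The highest-scoring sites of Ier2 (0.913) and Atf3 (0.908) ranked at the percentiles 93.3 and 92.5.

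By position, of the 42 sites, 1 lay in a 5′ UTR, 18 in coding sequence (42.9%, Wilson 95% interval 29.1 to 57.8) and 23 in a 3′ UTR (54.8%, 39.9 to 68.8), against 49.6% and 46.4% of all exonic sites. These intervals cover counting error only, and sites of 1 transcript share their source. Of the 42, 14 lay within the 400 nt downstream of the first base of the stop codon. Atf3 and Ier5 had their sites in the 3′ UTR only, whereas Klf6 and Klf10 each had 6 of 8 in coding sequence. DRACH held 40 of the 42 sites (95.2%, against 92.8% of all exonic sites). The sites are predictions of a classifier whose inputs include the nucleotides around the A and the transcript region. Shares by motif and by region, here and in the other lists, are therefore set in part by the classifier. GGACT was the most frequent pentamer with 13 sites, followed by GAACT with 8 and GGACA with 5. The 2 sites outside DRACH are shown since their pentamers depart from the motif: the first lay in the second exon of Klf6 and the second, with a score of 0.512 near the lower limit of the list, in the 3′ UTR of Btg2.
Klf6, chr13:5865138-5865158, plus strand, coding sequence: aatcttctCAACTatggggct
Btg2, chr1:134076568-134076588, minus strand, 3′ UTR: ttgcaatgGAATTttgggacc

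In mouse heart at 1000 ng the list was longer, with 44054 sites in exons of a single gene, and the immediate early genes held 90 of them, in all 10 genes, where 49.8% of the genes tested in mESCs had a site. The tissue labels were checked by markers: in this list Ttn held 195 sites, Ryr2 23, Pln 11, Tnnt2 2 and Myh6 1 (the other 3 of 8 heart markers held none), while Pou5f1, Sox2, Nanog and Zfp42 held none and Esrrb held 6, and in the mESC list the heart markers held none. Jun had 19 sites in heart against 3 in mESCs, Ier5 13 against 2, Klf6 14 against 8, and Egr1 8 against none. Junb and Atf3 had 7 against 3, Btg2 6 against 5 and Fos 1 against none. Ier2 had 10 in both, and Klf10 was the only one with fewer in heart, 5 against 8. RNA levels in heart were not measured, so the number of sites and the abundance of the mRNA cannot be told apart between the lists.

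**Figure D3:**
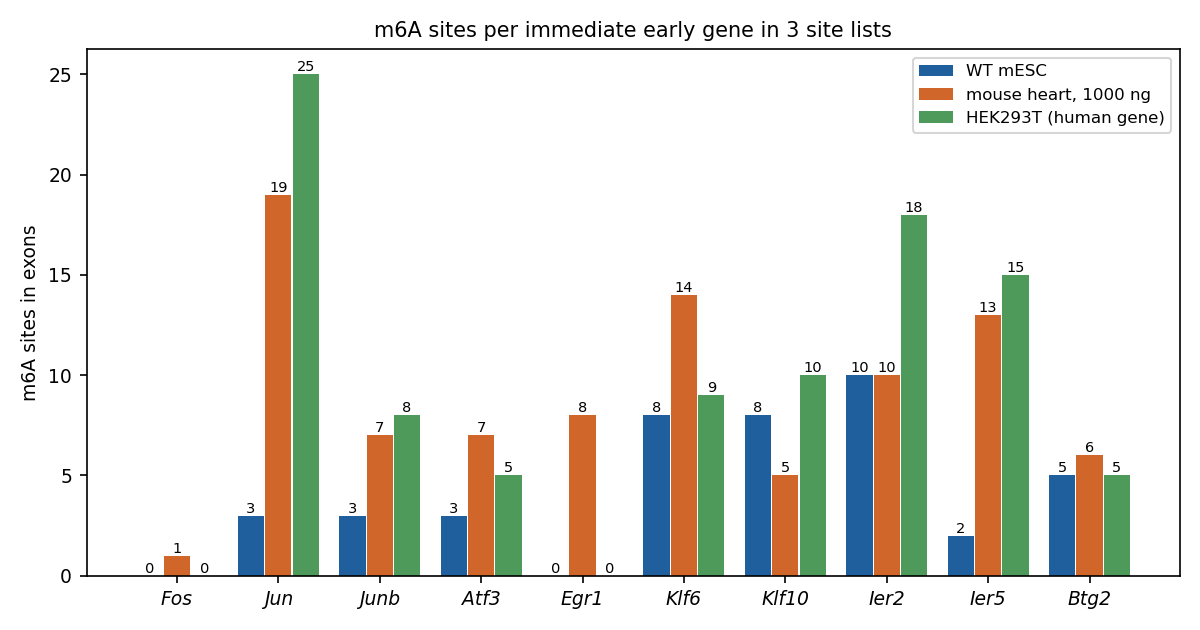
Number of exonic m6A sites in each immediate early gene in the WT mESC list, the mouse heart list at 1000 ng and the HEK293T list (human counterpart). Fos has 0, 1 and 0 sites, Egr1 has 8 in heart and none in the cell lines, and Jun goes from 3 in mESCs to 19 in heart and 25 in HEK293T.

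Most mESC sites of these genes were also heart sites. The same position and strand stood in both lists for 36 of the 42 mESC sites (85.7%, Wilson 95% interval 72.2 to 93.3). Over all mESC exonic sites the share was 59.7%, and over those in genes with a heart site it was 68.8%; the 42 sites come from 8 transcripts and no test of this difference was made. The 36 were 40.0% of the 90 heart sites, against 33.7% of all heart sites. All mESC sites of Jun, Junb, Ier5 and Atf3 were shared, as were 9 of 10 in Ier2, 7 of 8 in Klf6, 4 of 5 in Btg2 and 5 of 8 in Klf10. The 6 mESC sites missing from the heart list were 3 in Klf10 and 1 each in Ier2, Klf6 and Btg2, and 2 of these 6 were the sites outside DRACH. Of the 54 heart sites absent from the mESC list, 16 lay in Jun, 11 in Ier5, 8 in Egr1 and 7 in Klf6.

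**Figure D4:**
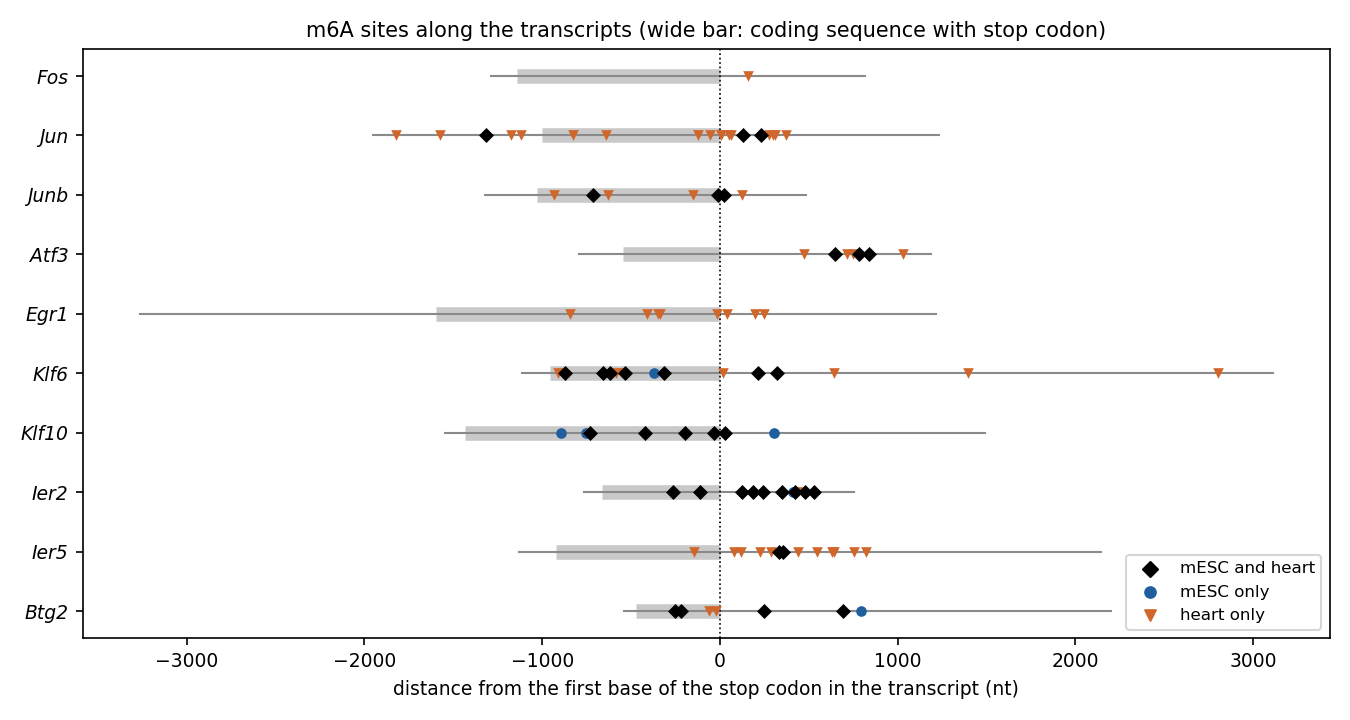
m6A sites along the transcript of each immediate early gene, as distance in nt from the first base of the stop codon (dotted line; wide grey bars are coding sequence, thin lines UTRs): in mESC and heart (diamonds), in mESC only (circles) and in heart only (triangles). The 16 heart-only sites of Jun spread over both UTRs and the coding sequence, and the 7 heart sites of Atf3 all lie 476 to 1029 nt downstream of the stop codon.

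The heart sites of these genes ranked high in their own list, whose score has a scale that is not given in the sources used here and is used only as a rank. Of the 90 sites, 24 (26.7%) were at or above the percentile 90 of the whole list, and the median rank of the 90 was at the percentile 76.6. In their own lists, 4 of the 42 mESC sites (9.52%) and 12 of the 95 HEK293T sites (12.6%) ranked that high, with medians at the percentiles 60.6 and 59.2. What the heart rank reflects was not tested. The 36 heart sites shared with mESCs had a median at the percentile 83.0 and the other 54 heart sites at 60.2. The highest-ranked was the Ier5 site that also had the highest score among the Ier5 sites in mESCs, at the percentile 99.4, and the 3 shared sites of Jun ranked at the percentiles 98.8, 98.0 and 91.6. Of the 90, 85 lay in DRACH, and the other 5 (2 in Ier5, 1 each in Junb, Klf6 and Atf3) were all GGACG. By region, 5 lay in the 5′ UTR, all in Jun, 33 in coding sequence and 52 in a 3′ UTR.

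With less heart RNA, fewer sites remained. At 300 ng the genes held 33 sites in 7 genes, of which 31 were also in the list at 1000 ng and 17 in that of mESCs. Ier5 had 10 of them, Jun 9, Klf6 5, Ier2 and Junb 3 each, Btg2 2 and Atf3 1. At 100 ng they held 8 sites, 4 in Ier5, 3 in Jun and 1 in Klf6, all of them in the 1000 ng list. At 50 ng a single site was left, in the 3′ UTR of Ier5, 353 nt downstream of the stop codon's first base, among 235 exonic sites in all. That site was in each of the 4 heart lists, in mESCs and, with the same 21 nt, in HEK293T.

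The HEK293T list held 34428 sites in exons of a single gene, with 95 in the human counterparts: 25 in JUN, 18 in IER2, 15 in IER5, 10 in KLF10, 9 in KLF6, 8 in JUNB, and 5 each in ATF3 and BTG2. FOS and EGR1 held none, as in mESCs. DRACH held 80 of the 95 (84.2%, against 89.2% of all exonic sites there). To compare species, each mouse transcript was aligned to its human counterpart. All 42 mESC sites had an aligned human base, which was an A at 38 and an A in DRACH at 28, and 24 of the 42 were also HEK293T sites. Of the 28 in DRACH, 6 were not HEK293T sites, so the 24 include sites outside the human DRACH. By gene the 24 were 6 of 8 in Klf6 and in Klf10, 5 of 10 in Ier2, 3 of 5 in Btg2, 2 of 3 in Junb, 1 of 3 in Jun, 1 of 2 in Ier5 and none of 3 in Atf3. Of the 90 heart sites, 89 were aligned, 59 with an A in DRACH, of which 21 were not HEK293T sites. In all, 40 of the 90 were HEK293T sites, 12 of them in Jun. Only these genes were aligned, so no share over all sites stands beside these counts. The Ier5 and Btg2 sites below are shown since all 21 nt were the same in both species and both lists held the site; positions are from GRCm38 for mouse and GRCh38 for human.
Ier5, mouse chr1:155098143-155098163, minus strand, 3′ UTR: gcagacagGGACTttcctctg
IER5, human chr1:181090207-181090227, plus strand, 3′ UTR: gcagacagGGACTttcctctg
Btg2, mouse chr1:134077612-134077632, minus strand, coding sequence: cacaagatGGACCccatcatc
BTG2, human chr1:203307175-203307195, plus strand, coding sequence: cacaagatGGACCccatcatc
The Ier5 site had a score of 0.806 in mESCs and 0.905 in HEK293T, and that of Btg2 had 0.751 and 0.728. The same 21 nt gave the classifier the same sequence input in both species.

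The 3′ UTRs were searched on the sense strand for the AU-rich pentamer ATTTA, counted with overlaps, and for the longer TTATTTATT, which contains it. Klf6 held 7 pentamers, Btg2 5, Fos, Jun and Klf10 4 each, Atf3 3, and Junb, Egr1 and Ier5 2 each; Ier2 held none, where 62.4% of 3′ UTRs of like length (within 10%) held at least 1. The longer motif stood only in Fos, once, where 4.85% of 3′ UTRs of like length held it. At least 4 pentamers, as in Fos, stood in 11.8% of 3′ UTRs of its length. For the other genes with a pentamer, the share of like-length 3′ UTRs with at least as many was larger. It ran from 22.4% for Junb to 79.8% for Ier5, with 39.8% for Klf6, 38.25% for Btg2, 32.9% for Klf10 and 28.6% for Jun. Among the genes with 4 or more pentamers, Klf6 and Klf10 had 8 mESC sites each, Btg2 5, Jun 3 and Fos none.

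Set beside the site counts, the changes in KO showed no single direction. Of the 8 genes with mESC sites, Jun rose and the other 7 did not pass, and their log2 fold changes ran from -0.78 for Ier2, with the most sites, to 1.16 for Jun, with 3. Of the 2 genes without a site, Egr1 fell and Fos did not pass. No test of this relation was made over 10 genes.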

How the data were processed

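The authors aligned RNA-seq reads to GRCm38.p6 with STAR 2.6.1b and counted them per gene with HTSeq 0.12.4 by strand; the deposited values are raw counts. For miCLIP2 the authors used STAR 2.7.3a and UMI-tools 1.0.0, called peaks and predicted m6A sites with m6Aboost; the deposited lists hold 1 score per site, merged over replicates. Heart titles give the 3 lower inputs in another mass unit; ng was used, as in the study's methods.

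Genes were tested with edgeR 4.0.16 (R 4.3.3; TMM, filterByExpr, quasi-likelihood test, KO minus WT, Benjamini-Hochberg over 15731 genes, called at an adjusted p of 0.01); the step was checked on simulated data. Reads in no gene, 36.7% to 42.7% of each file's total, were left out. WT and KO libraries with the same replicate number correlated in their deviations over genes, at 0.122, 0.464 and 0.303 for numbers 1 to 3. Pairs of unlike number ran from -0.342 to 0.110, so number 1 hardly stood out. Blocked values are given at least where they change a call among the 10 genes or move the calls of a list by over 1.5 times. Alternatives were DESeq2 1.42.0, other scaling, filters and thresholds, and each library left out.

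Sites were placed on GENCODE transcripts of the same genome builds (mouse M21, human 44; the authors used other releases), 1 transcript a gene; a site within exons of more than 1 gene was dropped. Genes were named by rule: Mettl3, all 10 genes, the 4 called genes of largest change in each other list, the cell markers, and the genes of most similar profile; genes named beyond it were chosen after their values were seen. Members and lists were chosen with earlier results of these data known. The KO miCLIP2 libraries were not analysed here.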

Additional observations from a re-analysis of the deposited data

How the results depend on the processing

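The number of immediate early genes called was 2 in the reported fit and with DESeq2, 1 with scaling by library size alone, 1 with at least 10 counts required in every library (where Egr1 is not tested), 4 with no filter on low counts (Jun, Egr1, Ier2 and Junb), 3 at a threshold of 0.05 and 3 with the replicate block; the cause of the change with no filter was not tested. Leaving out 1 library gave 0 (without KO replicate 1) to 2. For the 36 other immediate early genes, leaving out 1 library gave 7 to 11 calls, the replicate block gave 13, and the other 6 alternatives gave 10 to 12. The log2 fold change of Mettl3 passed at 0.05 (-0.50), with the replicate block (-0.51), with DESeq2 (-0.50) and without KO replicate 2, within a range of -0.62 to -0.40 as libraries were left out. The replicate block changed no other call among the 10 genes than that of Ier2. Among the genes that passed in no alternative, the log2 fold change ran from -1.01 to -0.27 for Fos, -0.74 to -0.39 for Ier5, 0.09 to 0.40 for Klf6, 0.19 to 0.33 for Klf10, -0.42 to -0.08 for Atf3 and -0.37 to -0.18 for Btg2. Over all genes, 4669 of 15731 were called in the reported fit, 6837 of 15731 with the replicate block and 6406 of 31057 with no filter. DESeq2 called 5438 of 19013, scaling by library size alone 4136 of 15731 and the filter of 10 counts 3896 of 13736. The number was 3108 without WT replicate 1, 2761 without KO replicate 1 and 3109 without KO replicate 3. With libraries scaled by size only, Elk4, Atf7 and Elavl1 also lost their calls (adjusted p = 0.0206, 0.0437 and 0.0109). No value of the 10 genes reversed. Counting only sites with a score at or above the median of the whole list left 26 of 42 sites in mESCs and 60 of 95 in HEK293T; limiting to DRACH, adding sites in exons of several genes, and matching within 2 nt moved no count by over 1.5 times. Site lists hold no counts, so the precision of each site could not be computed from them.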
